A study of Homo sapiens with 4 samples.

Results

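The YAP1, WWTR1 (TAZ), TEAD1, CTGF, CYR61 and ANKRD1 loci were examined in a chromatin immunoprecipitation sequencing (ChIP-seq) study of Fra-1 and DDX5 in BT549, an established human breast cancer line negative for oestrogen receptor alpha, grown without treatment. Antibodies to Fra-1 and to DDX5 gave 1 ChIP library each, and the controls were 1 library pulled down with non-specific rabbit IgG and 1 of input DNA, the sonicated chromatin before immunoprecipitation, which makes 4 libraries. The authors listed peaks of each antibody over input and over IgG, which gave 4 lists, and the study asked which binding events are specific to either protein and which are common to both. The members here were all peaks that overlapped, by at least 1 bp, 1 of 6 fixed hg19 windows around the genes, which came to 67 of the 57601 peaks in the 4 lists. Of these, 38 of 30571 were in the Fra-1 list over input, 20 of 16133 in the Fra-1 list over IgG, 9 of 10836 in the DDX5 list over input, and 0 of 61 in the DDX5 list over IgG. Every library came from this single cell line and each antibody had 1 library, so no difference was tested and the 95% exact (Clopper-Pearson) binomial intervals cover counting error only.

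YAP1 and TAZ, the product of WWTR1, are paralogous transcriptional coactivators that the Hippo kinase cascade holds back by phosphorylation. They have no DNA-binding domain and reach chromatin mainly through TEAD transcription factors, of which TEAD1 is a member. CTGF and CYR61 (CCN2 and CCN1 in current nomenclature) encode secreted matricellular proteins, ANKRD1 encodes an ankyrin repeat protein, and all are widely used as readouts of YAP and TAZ activity. Fra-1, of the Fos family, dimerises with Jun proteins to form AP-1, which contacts DNA itself and is known to share many enhancers with TEAD, YAP and TAZ in breast cancer cells. DDX5, an RNA helicase of the DEAD-box family, is known to work as a coactivator of several transcription factors.

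The promoters of YAP1, CTGF and ANKRD1 are shown because they hold matches to the hexamer GGAATG, the core of the TEAD motif, and because the peak lists differ at these genes. RefSeq promoters on GRCh38 were matched for YAP1, WWTR1, CTGF and ANKRD1, that is, for 4 of the 6 genes, and the 250 bases before each start were searched on both strands for GGAATG, for the AP-1 motif TGANTCA and for the CRE-type motif TGACGTCA. Each sequence runs 5′ to 3′ on the gene's strand and ends at the base before the transcription start. Capitals mark motif matches, which in YAP1 and CTGF are all GGAATG. In ANKRD1 they are GGAATG at 2 places and TGATTCA, an AP-1 motif, between them.
YAP1, GRCh38 chr11:102110197-102110446, plus strand: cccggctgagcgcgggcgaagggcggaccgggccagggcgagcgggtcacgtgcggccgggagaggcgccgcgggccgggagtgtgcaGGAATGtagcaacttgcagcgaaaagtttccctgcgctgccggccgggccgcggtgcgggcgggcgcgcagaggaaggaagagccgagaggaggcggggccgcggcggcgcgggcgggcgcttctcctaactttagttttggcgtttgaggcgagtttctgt
CTGF, GRCh38 chr6:131951373-131951622, minus strand: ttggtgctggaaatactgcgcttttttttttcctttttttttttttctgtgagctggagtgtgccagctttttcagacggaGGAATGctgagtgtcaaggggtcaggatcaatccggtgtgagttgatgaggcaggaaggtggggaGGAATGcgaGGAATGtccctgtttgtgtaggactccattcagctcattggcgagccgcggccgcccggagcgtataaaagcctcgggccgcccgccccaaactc
ANKRD1, GRCh38 chr10:90921088-90921337, minus strand: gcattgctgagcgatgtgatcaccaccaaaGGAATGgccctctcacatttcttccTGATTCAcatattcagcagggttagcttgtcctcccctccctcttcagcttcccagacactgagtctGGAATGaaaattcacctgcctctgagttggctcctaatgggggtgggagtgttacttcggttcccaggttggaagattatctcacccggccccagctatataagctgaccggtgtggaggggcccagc

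CTGF held 3 matches to GGAATG, with first bases at -169, -104 and -95 relative to the start. ANKRD1 held 2, at -220 and -128, and YAP1 held 1, at -162. Neither of the WWTR1 promoters in the table held any of the 3 motifs. Of 35116 RefSeq promoters of the same length, 11.9% held GGAATG at least once, 0.940% at least at 2 places and 0.0826% at 3 or more, and 6.57% held TGANTCA. These matches describe letters only. The peaks are placed on hg19 and no annotation of that build was used, so peaks were not placed on these promoters and are named by position within each gene's window. Coordinates of GRCh38 and hg19 cannot be compared directly, so a similar coordinate does not place a peak near a promoter.

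Fold enrichment and pileup are the authors' values for each peak. The fold is the ChIP pileup at the summit plus 1 over the local control level plus 1, and the pileup counts the ChIP fragments that cover the summit. Fra-1 peaks lay more densely in the 6 windows than over the whole list, and their median fold was near that of the list. The windows sum to 860 kb and held 4.42 Fra-1 peaks per 100 kb over input and 2.33 over IgG, against 1.00 and 0.531 over chromosomes 1 to 22 and X, whose length includes intergenic stretches and gaps. For DDX5 over input the density was 1.05 peaks per 100 kb in the windows and 0.355 over the whole list. The median Fra-1 fold over input was 5.14 in the windows and 5.37 in the whole list, and 11 of 38 members (28.9%, interval 15.4% to 45.9%) reached 8-fold, against 29.5% of the whole list. Over IgG the median was 6.23 in the windows and 6.82 in the whole list, and 6 of 20 members reached 8-fold, against 38.8%. The 8-fold line ran between 8.37 just inside and 7.72 just outside, both WWTR1 peaks over input, and between 8.87 (TEAD1) and 7.75 (YAP1) over IgG.

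**Figure D1:**
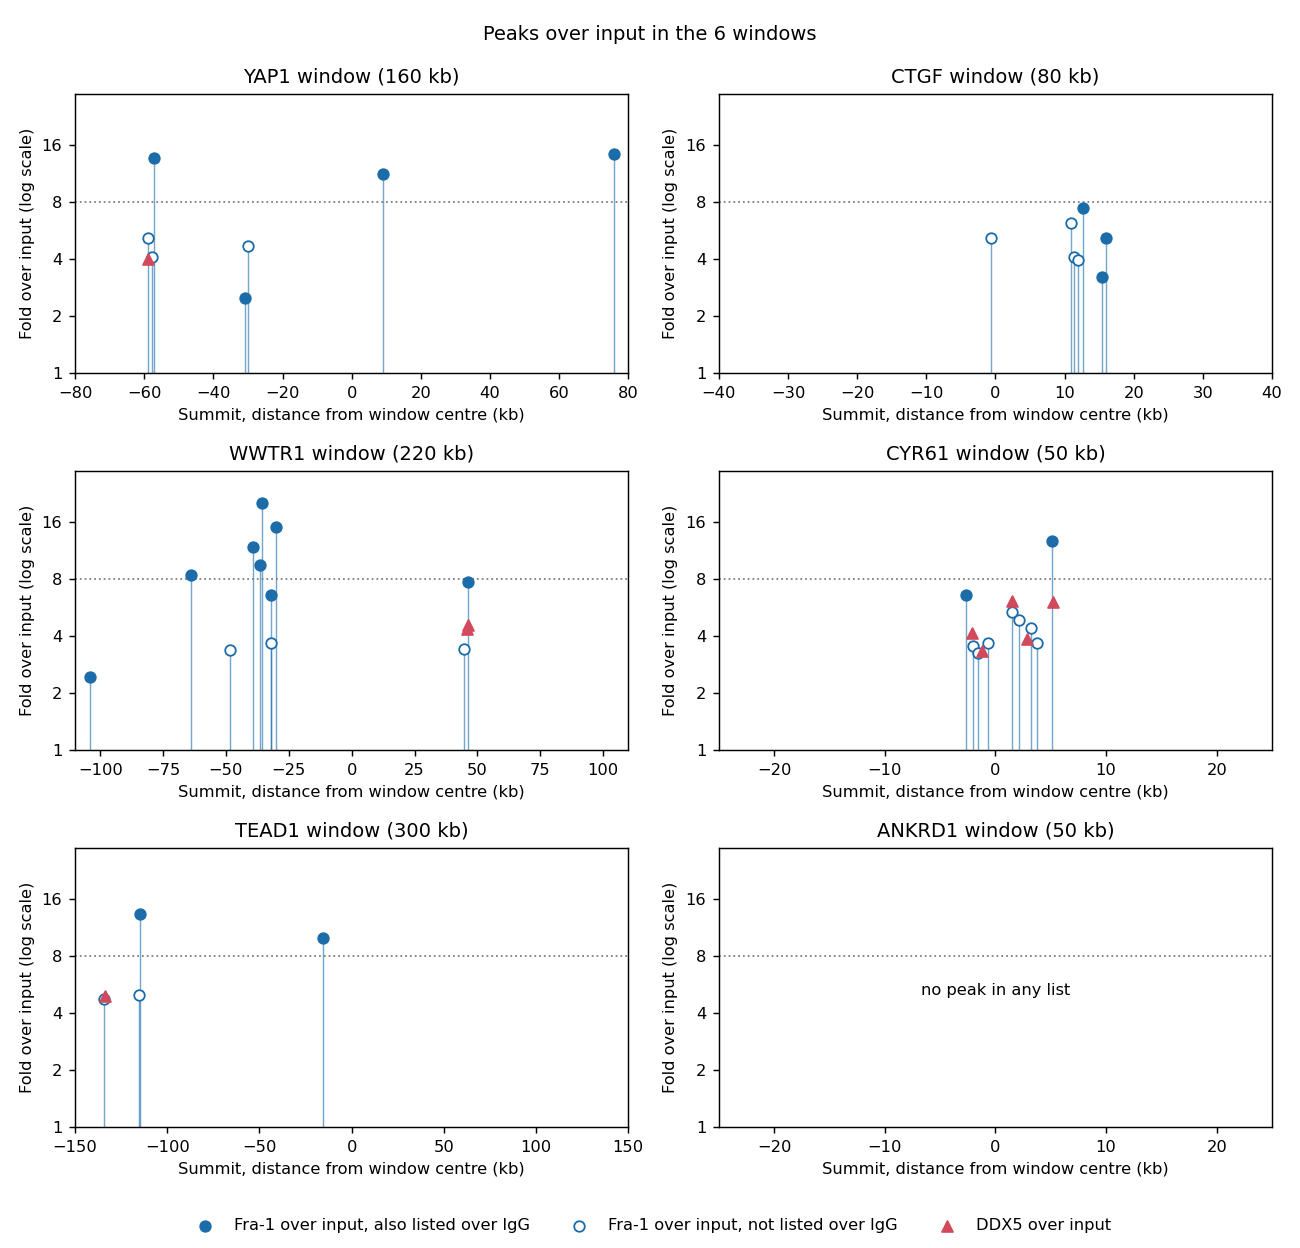
Fold over input (log scale) of each Fra-1 peak (circles, filled where a Fra-1 peak over IgG overlaps) and each DDX5 peak (triangles) against the distance of its summit from the centre of the window, with a dotted line at 8-fold. No DDX5 peak overlaps a Fra-1 peak of 8-fold or more in the YAP1, WWTR1 and TEAD1 windows, the CYR61 peaks of both antibodies gather within 8.18 kb, and the ANKRD1 window is empty.

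Inside the windows, the 4 highest Fra-1 folds over input were at the loci of the coactivators themselves. The YAP1 and WWTR1 windows held 18 Fra-1 peaks over input with a median of 7.16-fold, 8 of them at 8-fold or more. The target windows held 16 with a median of 4.63-fold, 1 of them at 8-fold or more. TEAD1, with the longest window, held 4 with a median of 7.46-fold, 2 of them at 8-fold or more. These sets hold few peaks and their ranges overlap, from 2.43 to 20.3 at the coactivators, 4.72 to 13.4 at TEAD1 and 3.20 to 12.7 at the targets. Over IgG the median was 6.76-fold for the 13 coactivator peaks, 11.0 for the 2 TEAD1 peaks and 4.75 for the 5 target peaks. Higher folds over input than any inside were listed near the target windows, with 25.6-fold at 2.65 kb from the CYR61 window and 20.6-fold at 34.5 kb from the CTGF window.

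The YAP1 window, 160 kb around a gene of 123 kb, held 7 Fra-1 peaks over input in 4 groups, with gaps of up to 10 kb bridged. The peak with the highest −log10 q was chr11:102115545-102116153, near the upper end of the window, with a pileup of 69, a fold of 14.4 and a −log10 q of 57.0, at the 88.5th percentile of fold in its list. A peak at chr11:102049042-102049369 stood alone with a pileup of 54 and 11.3-fold. The third strong peak, at chr11:101982353-101983060, had a pileup of 60 and 13.7-fold and was the last of 3 peaks within 2.22 kb. These 3 strong peaks were all listed over IgG as well, at 7.75-fold, 9.75-fold and 6.76-fold.

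The other 4 YAP1 peaks were weaker. The remaining peaks of that group of 3, chr11:101980841-101981355 and chr11:101982030-101982274, had pileups of 29 and 19 and folds of 5.14 and 4.11, and neither was listed over IgG. They were the YAP1 peaks that overlapped DDX5, at a DDX5 peak over input at chr11:101980914-101982079, which was 1166 bp wide with a pileup of 27 and 4.0-fold. In the middle of the window, chr11:102008891-102009218 had a pileup of 16 and 2.50-fold, at the 1.13th percentile of its list, and was listed over IgG at 3.03-fold. Its −log10 q was near the bottom of both lists, 1.63 over input (rank 30481 of 30571) and 1.99 over IgG (rank 16097 of 16133). The neighbouring peak at chr11:102009942-102010143 had 4.68-fold and was not listed over IgG. The DDX5 peak thus lay beside a 13.7-fold Fra-1 peak without touching it, and 134.7 kb from the strongest Fra-1 peak of the window.

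WWTR1, the gene of TAZ, held the Fra-1 peak with the highest fold inside the 6 windows. Its window, 220 kb around a gene of 208 kb, held 11 Fra-1 peaks over input. Of these, 5 were at 8-fold or more, against 29.5% of the whole list. A Fra-1 peak over IgG overlapped 8 of the 11, against 50.5% of the whole list. The peak at chr3:149293882-149294389 had a pileup of 145, a fold of 20.3 and a −log10 q of 137, which ranked 927 of 30571 in the list. Over IgG it had 17.9-fold and ranked 486 of 16133 by −log10 q.

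This peak belonged to a group of 7 within 18.5 kb, whose folds ran from 3.36 to 20.3 with a median of 9.52. Its other strong peaks were chr3:149299451-149300108 with a pileup of 87 and 15.1-fold, chr3:149290566-149291026 with 62 and 11.8-fold, and chr3:149293239-149293804 with 73 and 9.52-fold. All 3 were listed over IgG, at 12.2-fold, 9.30-fold and 7.45-fold. No DDX5 peak lay in this group. Outside it, chr3:149265732-149266840 had a pileup of 56 and 8.37-fold over a width of 1109 bp, and over IgG it was split into 2 peaks of 3.89-fold and 5.70-fold.

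DDX5 in the WWTR1 window was listed at a different place. Its 2 peaks over input, chr3:149375319-149375862 and chr3:149375946-149376320, had pileups of 25 and 27 and folds of 4.35 and 4.55. Both overlapped the same Fra-1 peak, chr3:149375660-149376866, which was the widest Fra-1 member at 1207 bp, with a pileup of 59 and 7.72-fold over input. Over IgG the Fra-1 fold there was 3.32, at an IgG level of 15. The DDX5 summits lay 81.5 and 82.0 kb from the summit of the strongest WWTR1 peak. The weakest Fra-1 member by fold, chr3:149225614-149226026 at 2.43-fold, was also in this window, where the input level was 9.68. The 4 WWTR1 Fra-1 peaks over input not named here had folds of 3.36 to 6.61, and 1 of them was listed over IgG.

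TEAD1, the DNA-binding partner, had the longest window and the lowest density of Fra-1 peaks of the 5 windows with peaks. In 300 kb around a gene of 270.3 kb there were 4 Fra-1 peaks over input, or 1.33 per 100 kb (Poisson interval 0.363 to 3.41), against 1.00 over the whole list. The strongest was chr11:12715210-12715543 with a pileup of 53 and 13.4-fold, followed by chr11:12814171-12814457 with 39 and 9.95-fold. Both were listed over IgG at nearly the same folds, 13.0 and 8.87. The other 2, chr11:12714069-12714545 at 4.97-fold and chr11:12695478-12696050 at 4.72-fold, were not listed over IgG. The only DDX5 peak, chr11:12695939-12696194 with a pileup of 17 and 4.89-fold over input, overlapped the weakest of these by 112 bp. Its summit lay 19.4 kb from that of the strongest Fra-1 peak, and the nearest DDX5 peaks over input outside the window were 2353 kb below and 5148 kb above it.

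CTGF, whose protein promotes matrix deposition, had Fra-1 peaks but none for DDX5. For DDX5 over input the Poisson interval was 0 to 4.61 peaks per 100 kb, which held the 0.355 of the whole list. The CTGF window, 80 kb around a gene of 3.20 kb, held 7 Fra-1 peaks over input with folds of 3.20 to 7.41, and none reached 8-fold. Of these, 6 lay within 5.40 kb. The strongest was chr6:132272420-132272757 with a pileup of 48, 7.41-fold and a −log10 q of 25.2, and chr6:132270743-132271087 followed with 32 and 6.23-fold. The 3 CTGF Fra-1 peaks over input not named here had folds of 3.94 to 5.14, and none was listed over IgG.

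Of the 7 CTGF peaks, 3 (42.9%, 9.90% to 81.6%) were listed over IgG, near the 50.5% of the whole list. At 2 of these 3 the fold was higher over IgG than over input. The strongest had 7.41-fold over input and 5.43-fold over IgG. The peaks chr6:132275914-132276140 and chr6:132275285-132275496 had 5.14-fold and 3.20-fold over input and 6.80-fold and 4.75-fold over IgG. The input level at those 2 was 6.78 and 7.74, above the 4.45 that was the median of the list, while the IgG level was 4.22 and 4.24, below the median of 5.20 in the list over IgG. A higher fold over IgG was found for 25.8% of all pairs of Fra-1 peaks listed with both controls, and for 4 of 20 in the windows.

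CYR61 held 7 of the 12 pairs of overlapping DDX5 and Fra-1 peaks over input, with 2 each at YAP1 and WWTR1 and 1 at TEAD1. Its window, 50 kb around a gene of 3.19 kb, held 9 Fra-1 peaks over input within 8.18 kb and 5 DDX5 peaks over input within 7.82 kb. The Fra-1 density over input was 18 per 100 kb (Poisson interval 8.23 to 34.2), the highest of the 6 windows. The 9 peaks form 1 group, so they are not independent, as the interval assumes. The density also depends on the length of the window, which runs from 50 to 300 kb. Over IgG the density at CYR61 was 4.0 per 100 kb, below the 4.09 of WWTR1. The strongest Fra-1 peak, chr1:86049930-86050379, had a pileup of 74 and 12.7-fold. The other 8 ranged from 3.24-fold to 6.61-fold, and chr1:86042199-86042705, with a pileup of 44, was the highest of these. Fra-1 was listed over IgG at the strongest peak and at chr1:86042199-86042705 only, at 3.50-fold and 3.63-fold. That was 2 of the 9 peaks, against 50.5% of the whole list.

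The DDX5 peaks at CYR61 included the strongest DDX5 members. The peak chr1:86046127-86047425, 1299 bp wide, had a pileup of 47, a fold of 6.10 and a −log10 q of 19.4, which ranked 316 of 10836 in its list. It spanned 2 Fra-1 peaks of 5.38-fold and 4.85-fold. The peak chr1:86050053-86050329 had a pileup of 31 and 6.03-fold and lay within the strongest Fra-1 peak, with summits 79 bp apart. The other 3, chr1:86042514-86042994, chr1:86047593-86048123 and chr1:86043727-86043980, had 4.14-fold, 3.85-fold and 3.35-fold. No DDX5 member reached 8-fold, against 2.28% of the whole list over input (4.92% of the 61 peaks over IgG), and none of the 9 was listed over IgG, against 0.508% of the whole list.

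ANKRD1 had no peak of either antibody over either control. Its window was 50 kb around a gene of 8.99 kb. The Poisson interval for 0 peaks in it, 0 to 7.38 per 100 kb, held the densities of the whole lists. These were 1.00 for Fra-1 over input, 0.531 for Fra-1 over IgG and 0.355 for DDX5 over input. The nearest Fra-1 peaks over input were 30.4 kb below the window, at chr10:92619257-92619571 with 8.95-fold, and 358 kb above it. The nearest DDX5 peaks over input were 1189 kb below and 383 kb above. Since the lists give the control level at peaks only, the recovery of this window in the input and IgG libraries was not analysed here, and the empty window shows only that no peak passed the authors' threshold. The ANKRD1 promoter holds 2 matches to GGAATG and 1 to TGANTCA.

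All 9 DDX5 members overlapped a Fra-1 member over input (interval 66.4% to 100%), against 61.8% of the whole DDX5 list. With a match defined by peak centres within 100 bp, the share was 11.1% of the members and 36.3% of the whole list. Without the CYR61 window 4 of 4 DDX5 members overlapped Fra-1, with an interval of 39.8% to 100% that holds the value of the whole list. Of the 38 Fra-1 members over input, 11 (28.9%, 15.4% to 45.9%) overlapped a DDX5 peak, against 21.8% of the whole Fra-1 list, and both lists were called over the same input library. CYR61 supplied 7 of these 11, and without its window the share was 13.8% (3.89% to 31.7%). Over IgG, 2 of 20 Fra-1 members overlapped a DDX5 peak over input, against 8.68% of the whole list, and a Fra-1 peak over IgG lay at 2 of the 9 DDX5 members, against 13.2%.

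The 9 DDX5 and 11 Fra-1 peaks formed 12 overlapping pairs. The DDX5 fold was higher than the Fra-1 fold in 4 of the 12, against 44.8% of all pairs in the lists. These were both pairs of chr1:86046127-86047425, at 6.10-fold for DDX5 and 5.38-fold and 4.85-fold for Fra-1, a further CYR61 pair at 4.14-fold for DDX5 and 3.56-fold for Fra-1, and the TEAD1 pair at 4.89-fold for DDX5 and 4.72-fold for Fra-1. In the other 8 the Fra-1 fold was higher, most at the strongest CYR61 site, at 6.03-fold for DDX5 and 12.7-fold for Fra-1. At the TEAD1 pair the DDX5 pileup was lower than that of Fra-1, 17 against 22. The input level at that DDX5 peak was 2.68, the lowest of its list, as at 17.7% of the DDX5 peaks over input, and 3.87 at the Fra-1 peak. The higher DDX5 fold of that pair thus rests on that lowest level. Summits lay 27 to 892 bp apart with a median of 266.5 bp, against 79 bp for all pairs, and 3 of the 12 were within 100 bp. A DDX5 peak that overlapped several Fra-1 peaks entered once per pair. Such peaks at CYR61 and YAP1 brought in the distances of 503, 591 and 892 bp, beside a nearer Fra-1 summit each. The median over pairs is thus not that of the nearest summits.

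**Figure D2:**
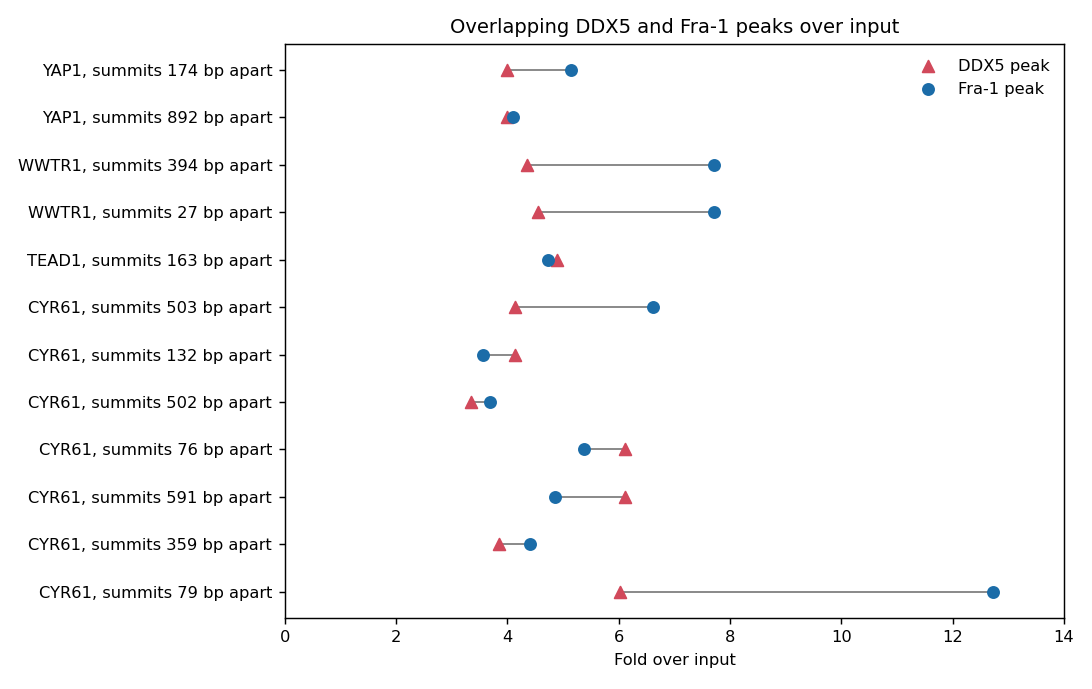
Fold over input of the DDX5 peak (triangles) and of the Fra-1 peak (circles) in each of the 12 overlapping pairs, labelled by locus and by the distance between summits. The DDX5 folds lie between 3.35 and 6.10, while the Fra-1 folds run from 3.56 to 12.7, and the DDX5 triangle is to the right in 4 pairs.

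The share of Fra-1 members listed over IgG was near that of the whole list, both with and without DDX5 overlap. With DDX5 this was 3 of 11 (27.3%, 6.02% to 61.0%) and without it 16 of 27 (59.3%, 38.8% to 77.6%), close to the 21.8% and 58.5% of the whole list. The 2 intervals for the members overlap. CYR61 supplied 7 of the 11 members with DDX5, so DDX5 overlap and locus cannot be told apart here. Taken over all members, 19 of 38 (50%, 33.4% to 66.6%) were listed again over IgG, against 50.5% of the whole list, with a median of 9.52-fold over input, against 8.88-fold for such peaks in the whole list. The 19 not listed again had a median of 4.11-fold and a highest fold of 6.23, and the median of such peaks in the whole list was also 4.11-fold. All 11 members at 8-fold or more over input were listed over IgG, as were 97.6% of such peaks in the whole list. Conversely, all 20 Fra-1 members over IgG overlapped one over input, against 97.7% of the whole list.

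The choice of control changed the order of the loci. By the highest Fra-1 fold of each window, the order over input was WWTR1 (20.3), YAP1 (14.4), TEAD1 (13.4), CYR61 (12.7) and CTGF (7.41), and over IgG it was WWTR1 (17.9), TEAD1 (13.0), YAP1 (9.75), CTGF (6.80) and CYR61 (3.63). At YAP1, CTGF and CYR61 the highest fold over IgG was at another site than the highest fold over input. With 1 library per antibody, whether neighbours in these orders differ could not be tested. The strongest TEAD1 peak stood at the lowest control level of both lists, 3.02 for input and 2.67 for IgG, so its folds and its place in the orders rest on those lowest levels. For the 20 pairs of Fra-1 peaks listed with both controls, the fold over input divided by the fold over IgG had a median of 1.28 and ran from 0.675 to 3.64, against a median of 1.27 over all 15780 such pairs. At the strongest CYR61 peak the fold was 12.7 over input and 3.50 over IgG, a ratio of 3.64, and at WWTR1 chr3:149375660-149376866 it was 7.72 over input and 3.32 over IgG, a ratio of 2.32. These and chr1:86042199-86042705, with a ratio of 1.82, were the 3 pairs whose peak over input overlapped DDX5. At the 17 pairs without DDX5 the ratio had a median of 1.24 and a highest value of 2.15, at WWTR1 chr3:149265732-149266840. Ratios of 2.02 and 1.85 at YAP1 peaks without DDX5 were also above 1.82. The IgG levels at the 3 pairs with DDX5 were 18, 15 and 10, against a median of 6.0 at the 17 pairs without DDX5. The highest IgG level without DDX5 was above the 10 of chr1:86042199-86042705. At chr1:86042199-86042705 the narrower peak over IgG did not itself overlap the DDX5 peak. Over all pairs listed with both controls, the median IgG level was 10 with DDX5 at the peak over input and 5.0 without. What raises the IgG level at these sites was not tested.

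**Figure D3:**
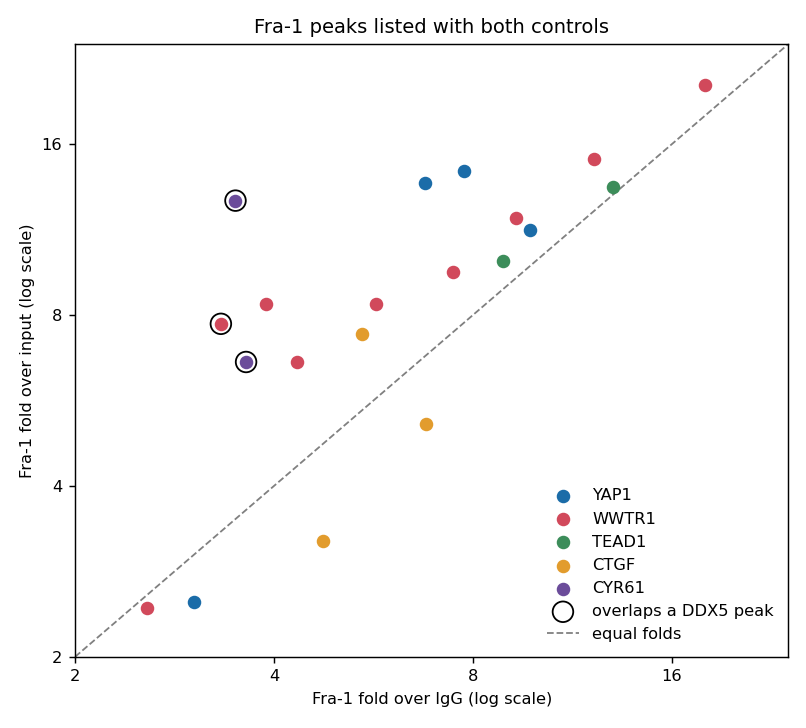
Fra-1 fold over input (vertical, log scale) against Fra-1 fold over IgG (horizontal, log scale) for the 20 pairs listed with both controls, coloured by locus, with a dashed line of equal folds. Rings mark pairs whose peak over input overlaps a DDX5 peak. The 3 ringed pairs lie left of the line at 3.32-fold to 3.63-fold over IgG, and 4 pairs lie below it.

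Control levels differed between the loci. The median input level at Fra-1 peaks was 6.0 at WWTR1, 5.81 at CYR61, 4.84 at CTGF, 3.87 at YAP1 and 3.02 at TEAD1, against 4.45 in the whole list. At 3 of the 4 TEAD1 peaks it was the lowest level in the list, 3.02, within 0.01, as it was at 15.3% of all peaks in the list. With so many peaks at 1 lowest value, input levels below it may not be resolved. All 9 CYR61 peaks and 9 of 11 WWTR1 peaks were above the median of the list, compared with 5 of 7 CTGF peaks, 2 of 7 YAP1 peaks and 0 of 4 TEAD1 peaks, which makes 25 of the 38. The IgG level had a median of 14 at CYR61, 7.0 at WWTR1, 5.50 at YAP1, 4.24 at CTGF and 2.84 at TEAD1, against 5.20 in the whole list. Their part in the folds at each locus was not tested.

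**Figure D4:**
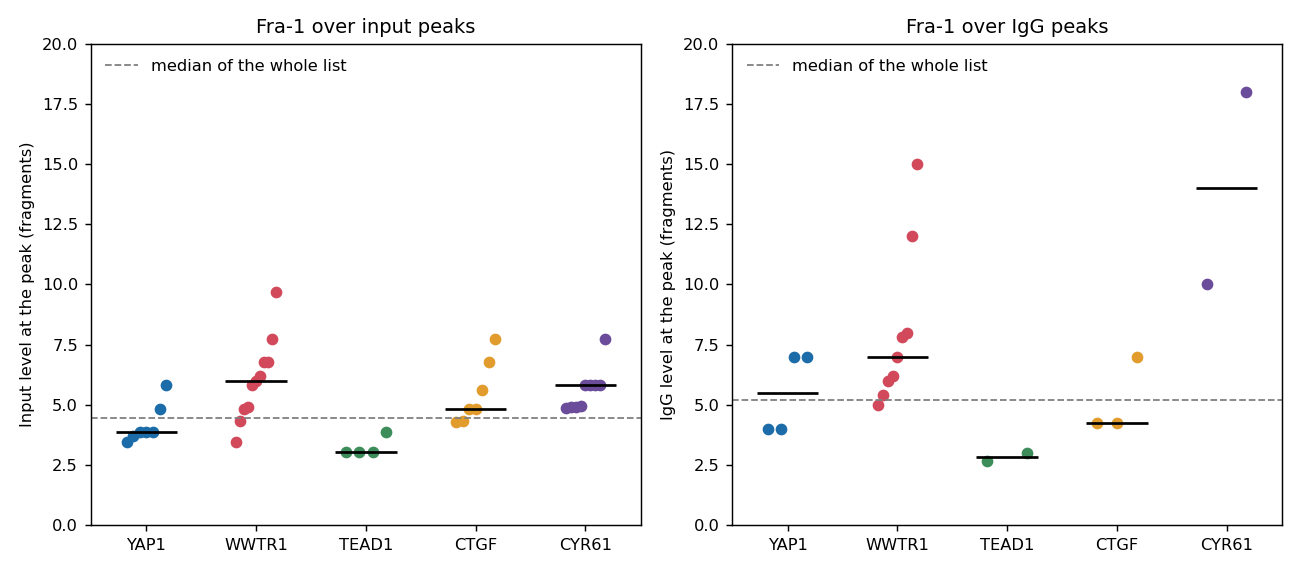
Input level at Fra-1 peaks over input (left) and IgG level at Fra-1 peaks over IgG (right), in fragments at the depth of each list, for the 5 windows with peaks; points are peaks, black bars the median of a locus and dashed lines the median of the whole list. TEAD1 lies lowest in both panels, and the CYR61 peaks reach an IgG level of 18.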

How the data were processed

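Peaks of Fra-1 and DDX5 ChIP-seq in BT549 cells were taken as the authors deposited them, 1 ChIP library against 1 control library per list. The submitters' processing notes name CASAVA 1.8, Bowtie 0.12.9, HOMER and the build hg19, without roles, and the peak caller is not given in the sources used here. Per the file headers, the deposited pileup is a signal, the number of ChIP fragments over the summit, and the deposited fold enrichment is a ratio. Pileups are whole numbers over input and multiples of 0.884 (Fra-1) and 0.998 (DDX5) over IgG, for 100.0% of values to within 0.02, so the ChIP signal was scaled to the IgG library there. The authors' 2 columns of −log10 values have no usable header. The second, below the first in 100.0% of peaks, was taken as −log10 q.

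The control level was computed as pileup plus 1 over fold, minus 1. Overlap meant at least 1 bp. Absolute read depths are unknown, so no depth limit is given. The overlap code was tested on simulated data. The work was done in Python 3.11.15 with matplotlib 3.10.9, scipy 1.17.1, pandas 2.3.3 and numpy 2.4.6. Peaks named were, per window and list, that with the highest −log10 q, every pair with DDX5, and those at the 8-fold threshold. Other peaks named were chosen after their values were seen. The windows, lists and motifs were chosen with earlier results of these data known. Promoter sequences are from RefSeq (GRCh38.p14).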

Additional observations from a re-analysis of the deposited data

How the results depend on the processing

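Alternative settings numbered 67, and 54 gave a value inside the 95% interval of that reported or, for counts of peaks and groups, within a factor of 1.5. Members above the list's median −log10 q numbered 18 (Fra-1 over input, against 38) and 9 (Fra-1 over IgG, against 20), and those of at least 8-fold 11, 6 and, for DDX5 over input, 0 against 9. Windows widened by 50 kb on each side held 35 Fra-1 peaks over IgG. At 5-fold the share of Fra-1 members past the threshold was 52.6% (54.9% of the whole list), and among members above the median −log10 q 88.9% were listed over IgG (86.3%). With centres within 100 bp, 2.63% of Fra-1 members had a DDX5 peak (12.9%) and 11.1% of DDX5 members a Fra-1 peak (36.3%); with Fra-1 over IgG the first share was 10.0%. Members listed over both controls had a median of 9.52-fold (8.88). Leaving out each window in turn gave 22.2% to 35.5% at 8-fold, 40.7% to 58.6% listed over IgG, 13.8% (without CYR61) to 37.0% of Fra-1 members with DDX5, and 100% each time for DDX5 members with Fra-1. A higher threshold can only lower a count of members; for the other moves the cause was not tested. No paired analysis was possible because each antibody had 1 library. The planned analyses of transcription starts, of motifs at summits and of other Hippo pathway genes need an hg19 reference and were not run. Shares over 9 to 38 peaks have wide intervals. Of the reported shares, only that of DDX5 members with Fra-1 (9 of 9) had an interval (66.4% to 100%) without the value of the whole list (61.8%), and these 9 peaks lie at 4 loci, so they are not independent. The interval held the value of the whole list without CYR61 (4 of 4, 39.8% to 100%), without WWTR1 (7 of 7, 59.0% to 100%), above the median −log10 q (8 of 8, 63.1% to 100%, whole list 77.7%), at 50% overlap (66.7%, 29.9% to 92.5%, whole list 57.7%) and with centres within 500 bp (88.9%, 51.8% to 99.7%, whole list 64.8%) or 100 bp (0.281% to 48.2%).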

Other observations

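Fra-1 peaks with higher folds than any inside the CYR61 and CTGF windows lay outside them, at different distances. At CYR61, a Fra-1 peak at chr1:86072650-86073492, 2.65 kb above the window, had 25.6-fold over input, compared with 12.7-fold for the strongest peak inside. It was listed over IgG at 13.5-fold, and a DDX5 peak at chr1:86072738-86072986 with 3.91-fold over input lay within it. At CTGF, the nearest Fra-1 peak below the window, 34.5 kb away at chr6:132185137-132185460, had 20.6-fold over input and 13.8-fold over IgG, compared with a highest fold of 7.41 over input inside. In the RefSeq annotation the nearest protein-coding neighbours are DDAH1 and ZNHIT6 for CYR61 and ENPP1 and MOXD1 for CTGF, and which gene these sites act on was not tested. A Fra-1 peak over input at chr3:149219363-149219762 with 7.71-fold lay 0.238 kb below the WWTR1 window.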
